A study of Mus musculus with 5 samples.

Results

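The 10 genes here belong to the smooth muscle contractile apparatus and were examined in undifferentiated mouse embryonic stem cells that carry a homozygous disruption of Mkl2 (labelled Mkl2-/-) and in wild-type cells. They are the actin genes Acta2 and Actg2, the actin-binding protein genes Tagln, Cnn1, Cald1, Smtn and Lmod1, the myosin genes Myl9 and Myh11, and the intermediate filament gene Des. A gene was taken where the array annotation gave a feature that symbol and no other, and the brightest feature was used. All 10 were found, each with 1 feature, among 19938 genes. The set and its members were chosen with earlier results of these data known.

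There were 3 Mkl2-/- arrays and 2 wild-type arrays. Both genotypes are labelled C57BL/6 and were grown in the same way, on gelatin and a layer of mouse embryonic fibroblasts with fetal bovine serum and LIF, and fibroblasts were left to adhere for an hour before the stem cells were collected. The cultures are described as independent, but the sources used here do not say whether they come from 1 or several lines per genotype, so p-values measure the spread between cultures. The labels do not describe how the Mkl2 allele was made. Values are log2 expression levels, and every difference is Mkl2-/- minus wild type.

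Smooth muscle contracts when phosphorylated myosin pulls on thin filaments of actin. Most genes of this apparatus carry CArG boxes, the binding sites of serum response factor (SRF). SRF acts there with myocardin, which is made mainly in heart and smooth muscle, or with the more widely expressed myocardin-related factors MKL1 and MKL2, which enter the nucleus when free actin monomers become scarce. Embryonic stem cells are not muscle, yet they and many cultured cells transcribe part of this gene set.

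The promoters of Acta2 and Myl9 are shown because both genes fell and theirs were the windows with a match: Myl9 has a CArG box, and Acta2 has CArG-like boxes only. Each window covers 250 bases before and 50 after a transcript start, taken from RefSeq (GRCm38.p6) and written 5′ to 3′ on the gene's strand. The Acta2 window is chr19:34255324-34255623 on the minus strand and the Myl9 window is chr2:156775214-156775513 on the plus strand. Capitals mark CArG boxes and CArG-like boxes, in which 1 of the 6 inner A or T bases is G or C.
Acta2: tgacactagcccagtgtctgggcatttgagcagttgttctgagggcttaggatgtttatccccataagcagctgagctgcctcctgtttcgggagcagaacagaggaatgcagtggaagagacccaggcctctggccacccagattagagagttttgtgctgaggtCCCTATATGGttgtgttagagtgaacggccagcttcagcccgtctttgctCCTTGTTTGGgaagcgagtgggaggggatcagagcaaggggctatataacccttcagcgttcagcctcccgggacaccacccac
Myl9: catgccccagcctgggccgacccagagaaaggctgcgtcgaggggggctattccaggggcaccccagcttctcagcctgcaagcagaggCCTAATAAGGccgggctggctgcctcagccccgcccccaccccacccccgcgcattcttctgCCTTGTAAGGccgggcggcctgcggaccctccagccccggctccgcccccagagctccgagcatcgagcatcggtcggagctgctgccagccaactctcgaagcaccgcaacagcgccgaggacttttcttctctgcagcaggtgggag
Acta2 has the CArG-like boxes CCCTATATGG, 84 to 75 bases before the start, and CCTTGTTTGG, 34 to 25 bases before it. Myl9 has the CArG box CCTAATAAGG, 161 to 152 bases before the start, and the CArG-like box CCTTGTAAGG, 99 to 90 bases before it. The motif reads the same on both strands, and the boxes of each window do not overlap. Of all 32851 RefSeq windows of 300 bases, 1.63% held a CArG box, 8.50% a CArG-like box, and 0.822% held 2 or more boxes of either kind. Windows were at hand for 7 of the 10 genes; Cald1, with 2 windows, Cnn1, Smtn, Lmod1 and Des had no match in these letters. A match is a description of sequence only.

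Of the 10 contractile genes 7 fell in Mkl2-/- cells and none rose, while 3 missed the threshold. Acta2 and Tagln fell to 25.5% and 26.3% of the wild-type intensity and Cnn1 and Myl9 to 34.3% and 35.6%. Cald1 fell less, and Smtn and Des fell by small amounts. Actg2, Lmod1 and Myh11 had differences near 0. Over all 19938 genes 9.27% passed, 6.28% lower and 2.99% higher (limma, Benjamini-Hochberg adjusted p below 0.05). A fall of at least 1.5-fold was called for 5 of the 10 genes and for 2.05% of all genes. The median difference was -0.49 for the 10 genes and 0.02 for all genes. In these bulk samples fewer cells of a type and less RNA per cell cannot be told apart. The arrays of both genotypes did not overlap, with every Mkl2-/- array lower, for 7 of the 10 genes, and this held for 16.7% of all genes; for none of the 10 was every Mkl2-/- array higher, which held for 16.9% of all genes.

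**Figure D1:**
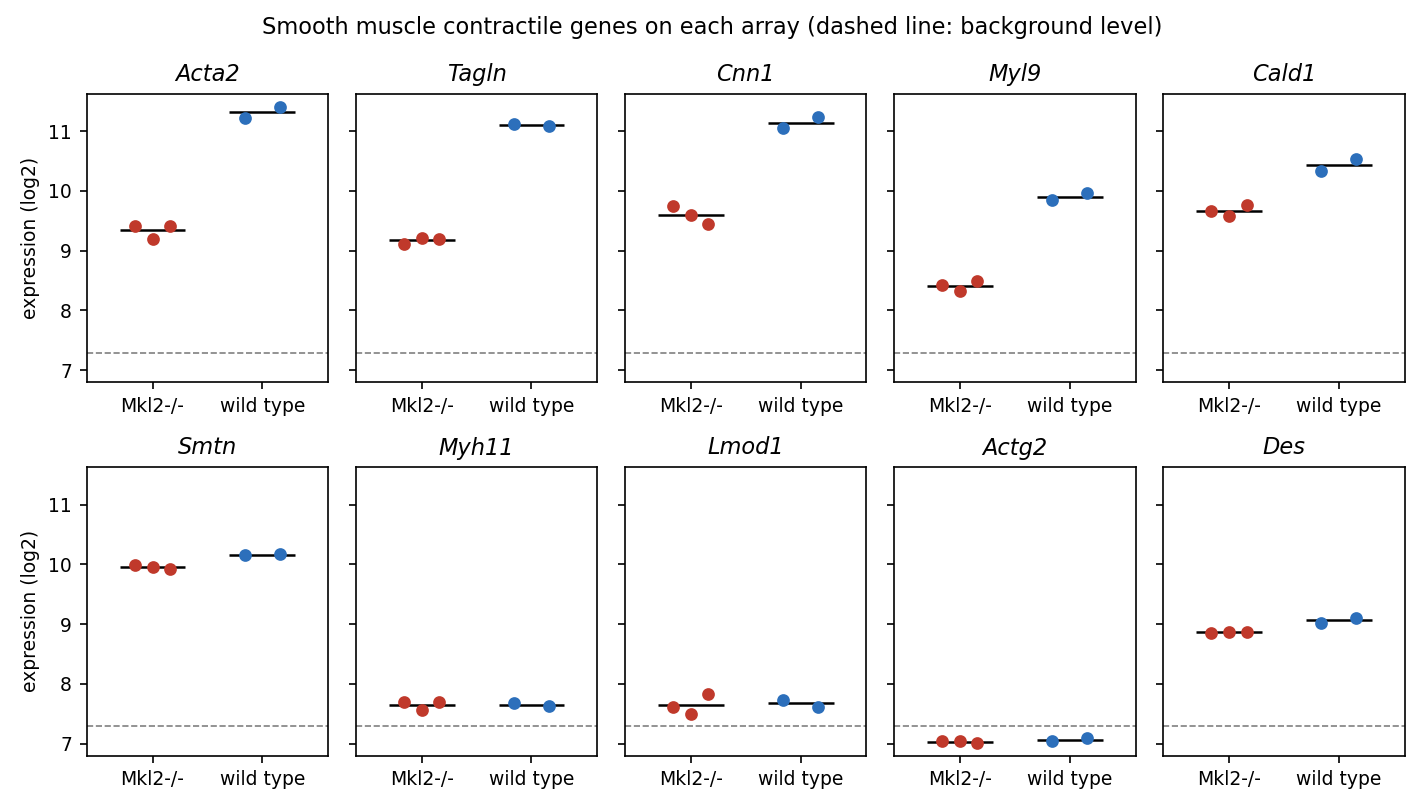
Log2 expression of each contractile gene on the 3 Mkl2-/- arrays (red) and the 2 wild-type arrays (blue); black lines are group means and the dashed line is the background level of 7.29. Acta2, Tagln, Cnn1, Myl9 and Cald1 show a wide gap between genotypes, Smtn and Des a narrow one, and Myh11, Lmod1 and Actg2 none.

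Of the actin genes, Acta2 fell and Actg2 lay below the background level. Acta2 (feature 10467124, chromosome 19) encodes alpha smooth muscle actin. It read 9.42, 9.20 and 9.41 on the Mkl2-/- arrays, against 11.22 and 11.41 on the wild-type arrays. The gap of 1.80 between the nearest arrays of the groups was far wider than the range within either group, 0.22 in Mkl2-/- and 0.19 in wild type. Acta2 fell by 1.97 on the log2 scale (SE 0.103, n = 3 and 2, limma adjusted p = 0.00787), which is 25.5% of the wild-type intensity. Its difference was the 7th lowest of all genes. Actg2 (feature 10545707, chromosome 6) encodes gamma smooth muscle actin, the isoform typical of gut and bladder muscle. It read 7.04, 7.04 and 7.02 in Mkl2-/- cells, against 7.04 and 7.09 in wild-type cells, and the groups overlapped. All 5 arrays lay below the background level of 7.29, a level that 95% of 1015 olfactory receptor genes did not exceed on average, so no fold is given.

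Among the actin-binding proteins, transgelin and calponin showed the large falls. Tagln (feature 10593123, chromosome 9), the gene of transgelin or SM22-alpha, an early marker of smooth muscle, read 9.12, 9.21 and 9.20 in Mkl2-/- cells, against 11.12 and 11.09 in wild-type cells. Its arrays were the most tightly grouped of the large falls, with a range of 0.09 in Mkl2-/- and 0.03 in wild type. Tagln fell by 1.93 on the log2 scale (SE 0.035, limma adjusted p = 0.00414), to 26.3% of the wild-type intensity, and no gene had a smaller adjusted p. Cnn1 (feature 10583809, chromosome 9), the gene of calponin 1, which binds actin and restrains myosin ATPase, read 9.74, 9.60 and 9.45 in Mkl2-/- cells, against 11.05 and 11.23 in wild-type cells. It fell by 1.54 (SE 0.112, adjusted p = 0.0109), to 34.3% of the wild-type intensity, and its 3 Mkl2-/- arrays were spread over 0.29, more than those of the other genes that fell.

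Caldesmon and smoothelin fell less. Cald1 (feature 10537184, chromosome 6) encodes caldesmon, an actin-binding inhibitor of contraction that also has a non-muscle form. It read 9.67, 9.58 and 9.76 in Mkl2-/- cells, against 10.34 and 10.53 in wild-type cells, and every Mkl2-/- array was lower by at least 0.58. Cald1 fell by 0.77 on the log2 scale (SE 0.0862, limma adjusted p = 0.0223), to 58.9% of the wild-type intensity. Smtn (feature 10383731, chromosome 11), the gene of smoothelin, a cytoskeletal protein of contractile smooth muscle, read 9.99, 9.96 and 9.92 in Mkl2-/- cells, against 10.15 and 10.18 in wild-type cells. The groups were separate by only 0.16, and Smtn fell by 0.21 (SE 0.0267, adjusted p = 0.0284), to 86.6% of the wild-type intensity. Its difference was the 1875th lowest of all genes.

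Lmod1 (feature 10350123, chromosome 1) encodes leiomodin 1, which nucleates actin filaments in smooth muscle. It read 7.62, 7.49 and 7.84 in Mkl2-/- cells, against 7.73 and 7.62 in wild-type cells. The Mkl2-/- arrays enclosed both wild-type arrays. The difference was -0.03 (95% confidence interval -0.37 to 0.32, adjusted p = 0.918), an interval that leaves room for a change of either sign. All 5 arrays lay above the background level, by at most 0.55.

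Of the myosin genes, Myl9 fell and Myh11 lay close to the background level. Myl9 (feature 10477920, chromosome 2) encodes the regulatory light chain whose phosphorylation starts contraction in smooth muscle and non-muscle cells. It read 8.42, 8.33 and 8.50 in Mkl2-/- cells, against 9.84 and 9.97 in wild-type cells, with 1.34 between the nearest arrays of the groups. Myl9 fell by 1.49 on the log2 scale (SE 0.0707, limma adjusted p = 0.0068), to 35.6% of the wild-type intensity. Myh11 (feature 10437885, chromosome 16) encodes the smooth muscle myosin heavy chain, the most specific marker of this cell type in the set. It read 7.69, 7.56 and 7.69 in Mkl2-/- cells, against 7.68 and 7.63 in wild-type cells, and the groups overlapped. Its difference was -0.01 (95% confidence interval -0.16 to 0.14, adjusted p = 0.946). The wild-type values, 7.68 and 7.63, lie close to the background level of 7.29. A fall of the size seen in Myl9 or Acta2 would take them below that level. The interval therefore cannot decide whether Myh11 RNA fell that far. Myh11 is on the same chromosome as Mkl2, with 12 protein-coding genes between them in the RefSeq table. Of the 10 of these that were measured, 3 were called higher and none lower, with a median difference of 0.13. Over all genes 2.99% were called higher and 6.28% lower, and the genes of chromosome 16 above background had a median difference of 0.02.

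Des (feature 10347583, chromosome 1) encodes desmin, the intermediate filament of smooth, skeletal and cardiac muscle. It read 8.85, 8.87 and 8.87 in Mkl2-/- cells, against 9.02 and 9.11 in wild-type cells, a gap of 0.15 between the nearest arrays. Des fell by 0.20 (SE 0.0318, limma adjusted p = 0.0427), to 87.0% of the wild-type intensity. The 760 genes of chromosome 1 above background had a median difference of -0.17, which is inside the interval for Des of -0.29 to -0.11, and the 24 nearest of them a median of -0.09. Whether this shift has a part in the value for Des was not tested. On the chromosomes of the other genes that fell the median lay between 0.00 and 0.02. The median of their nearest genes above background lay between -0.045 (Smtn) and 0.0575 (Tagln). Actg2 did not fall, but the 24 genes nearest to it had a median of -0.31, while that of chromosome 6 was 0.00.

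**Figure D2:**
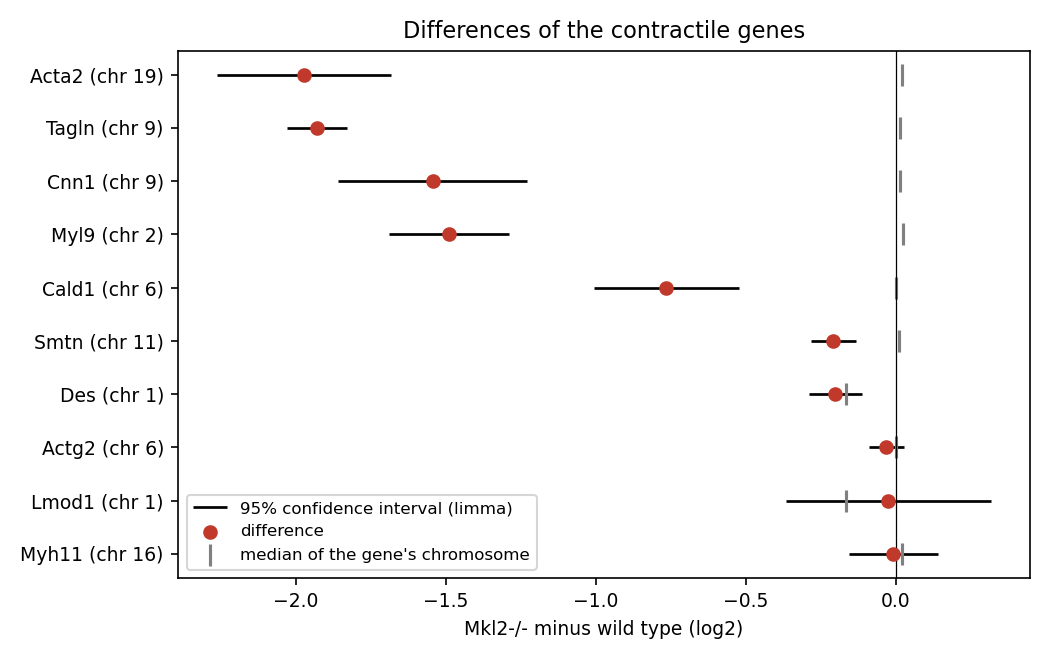
Difference of each contractile gene, Mkl2-/- minus wild type (log2), with its 95% confidence interval from limma; grey ticks are the median difference of genes above background on the same chromosome. The intervals of 7 genes lie below 0, and only for Des and Lmod1 does the chromosome median lie away from 0, at -0.17.

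The sizes of these differences varied among the 7 genes. The differences of Acta2 and Tagln, -1.97 and -1.93, have overlapping 95% confidence intervals, -2.26 to -1.68 and -2.03 to -1.83. The same holds for Cnn1 (-1.54, -1.86 to -1.23) and Myl9 (-1.49, -1.69 to -1.29), and for Smtn and Des (-0.21 and -0.20). The interval of Cnn1 also overlaps those of Acta2 and Tagln. That of Myl9 just overlaps that of Acta2 but not that of Tagln. Of these 4 genes only Tagln and Myl9 thus have separate intervals. The interval of Cald1, -1.01 to -0.52, overlaps neither that of Myl9 nor that of Smtn (-0.28 to -0.13). Differences between genes were not tested. Acta2, Tagln, Cnn1 and Myl9 were among the 30 lowest differences of the 19938 genes, and Cald1 was the 242nd lowest.

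**Figure D3:**
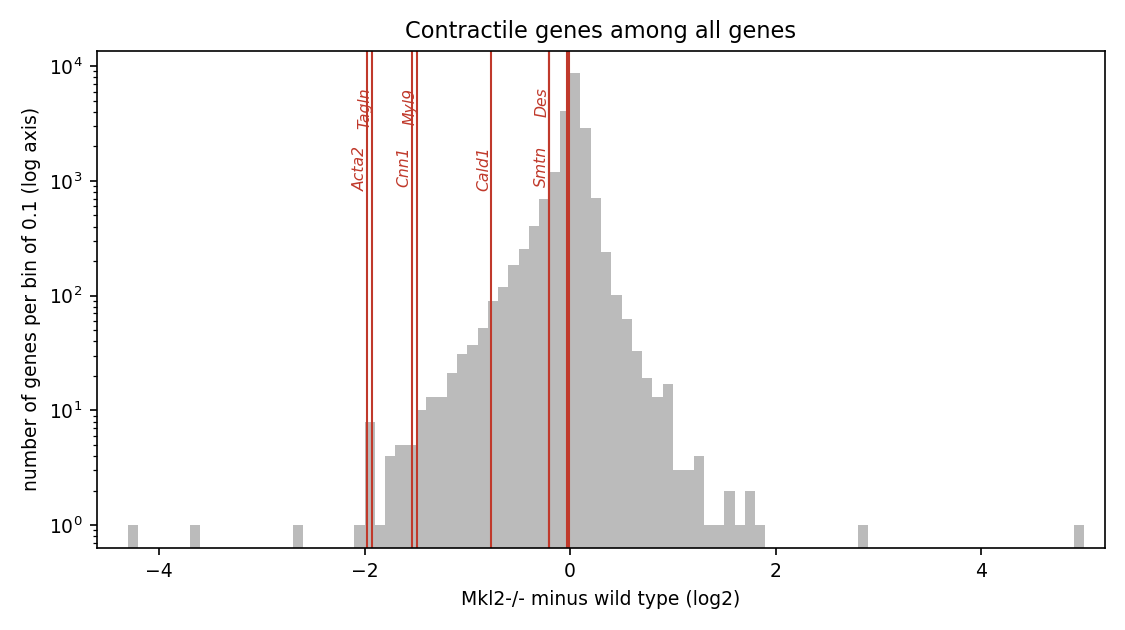
Number of genes (log axis) by difference, Mkl2-/- minus wild type (log2), in bins of 0.1, with the contractile genes as red lines; the lines of Actg2, Lmod1 and Myh11 lie next to 0 and carry no name. Acta2, Tagln, Cnn1 and Myl9 lie in the sparse left tail, between -1.97 and -1.49.

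The test rests on few arrays. With each array left out in turn every one of the 7 genes kept a negative difference, but fewer passed: 4, 3 and 3 without Mkl2-/- replicates 1, 2 and 3, 4 without wild-type replicate 1, and none without wild-type replicate 2, where no gene of the whole array passed and the smallest adjusted p was 0.0583 (4411 genes had an unadjusted p below 0.05, among them all 7). Acta2, Tagln and Myl9 passed in 4 of the 5 fits, Cnn1 and Des in 1, and Cald1 and Smtn in none. In the fits without a wild-type array the other wild-type array stands alone and is assumed to vary like the Mkl2-/- arrays, which alone give the spread; the single pass of Des (adjusted p = 0.0394) comes from such a fit. The difference of Acta2 ranged from -2.07 to -1.88 and that of Tagln from -1.95 to -1.90 over these fits. Among the 7 genes, all but Tagln were higher on wild-type array 2 than on wild-type array 1, by 0.03 (Smtn) to 0.19 (Acta2 and Cald1).

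**Figure D4:**
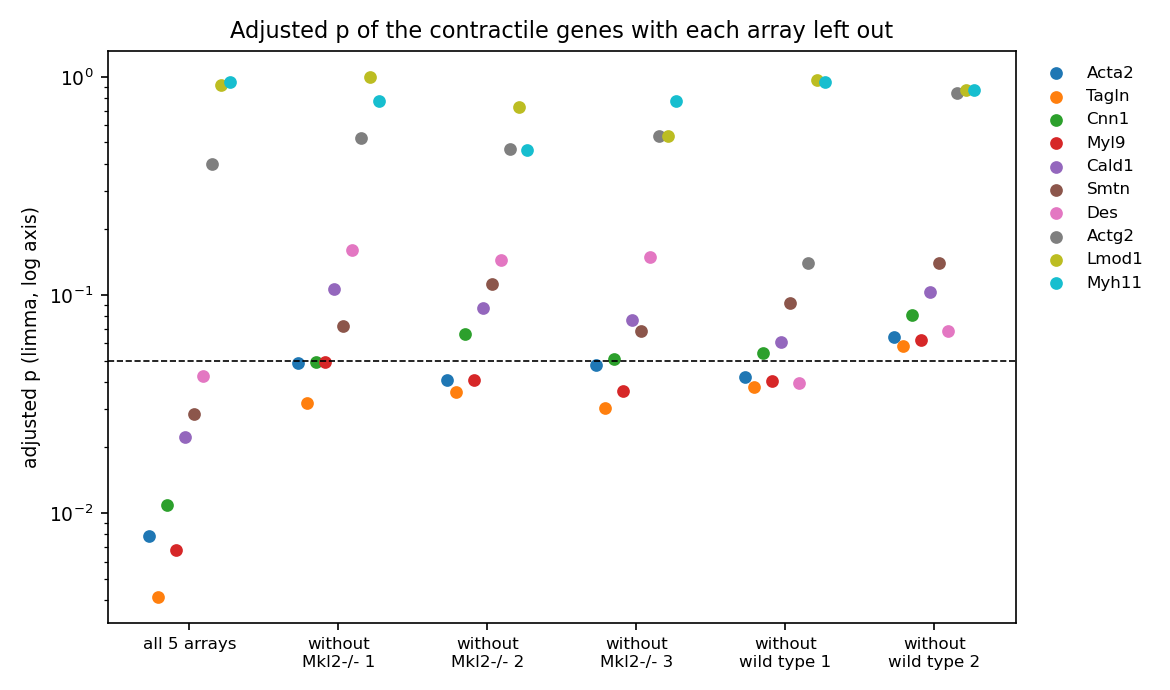
Adjusted p from limma (log axis) of each contractile gene with all 5 arrays and with each array left out; the dashed line is 0.05 and points are spread sideways to be visible. Without wild-type replicate 2 all 10 genes lie above the line, the lowest being Tagln at 0.0583.

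Mkl2 itself, now named Mrtfb, was lower on all 3 of its features, each of which stayed above the background level on every array. Its brightest feature (10433633, chromosome 16) read 9.32, 9.32 and 9.09 in Mkl2-/- cells, against 9.80 and 9.75 in wild-type cells (difference -0.53, SE 0.089, adjusted p = 0.048). Feature 10433639 read 8.94, 8.81 and 8.86 in Mkl2-/- cells, against 9.62 and 9.78 in wild-type cells, and feature 10433656 read 8.99, 8.89 and 8.71, against 9.76 and 9.92. With all 35556 features fitted, their differences were -0.83 (limma adjusted p = 0.0205) and -0.98 (adjusted p = 0.0309), and the brightest feature no longer passed (adjusted p = 0.067). Of its partners, Srf differed by -0.16 (adjusted p = 0.0997) and Mkl1, the other myocardin-related factor, by 0.01 (adjusted p = 0.664). Myocd, the myocardin gene, was below background on all 5 arrays. The labels do not say which part of Mkl2 is disrupted, so these features may lie outside it. In a list of 20 known regulators of smooth muscle genes, which holds Mkl2 itself and TGF-beta genes that the title of the study names as its subject, 10 fell and 3 rose, the median being -0.23; 50% fell, against 6.28% of all genes. Those with the smallest p were the ligand genes Tgfb1 (-0.61) and Tgfb2 (-1.75), Klf4 (-0.69), a zinc finger factor that can repress smooth muscle genes, Smad3 (-0.46), which carries TGF-beta signals, Tead1 (-0.50), a partner of YAP, and Klf5 (0.28), which rose. The largest rise in the list was that of Gata6 (0.935, limma adjusted p = 0.0198). Tgfb2 lies on chromosome 1.

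Other smooth muscle genes moved less uniformly. Of 39 measured genes of muscle filaments, adhesion plaques and ion channels, 11 fell, 2 rose and 26 did not pass, with a median of -0.02; 28.2% of them fell, against 6.28% of all genes. Palld, which encodes the actin-bundling protein palladin, fell by 1.41 (SE 0.080, limma adjusted p = 0.00811). It read 8.62, 8.60 and 8.75 in Mkl2-/- cells, against 9.98 and 10.16 in wild-type cells. Csrp1 (-0.68, chromosome 1), a LIM protein gene, the tropomyosin genes Tpm1 (-0.56) and Tpm2 (-0.54), and Vcl (-0.45), which encodes vinculin, also fell. Synm, which encodes synemin, a filament partner of desmin, rose by 0.38 (SE 0.034, adjusted p = 0.0148), and Mylk, the gene of the kinase that phosphorylates MYL9, differed by 0.06 without passing.

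Some near relatives of the contractile genes fell too. Of 27 measured paralogues 5 fell, none rose and 22 did not pass, with a median of -0.01; 18.5% fell. The cardiac actin gene Actc1 fell by 1.103 (SE 0.0811, limma adjusted p = 0.0111), with 8.36, 8.29 and 8.51 in Mkl2-/- cells, against 9.54 and 9.44 in wild-type cells. The skeletal actin gene Acta1 fell by 0.69, Tagln2 by 0.43 (chromosome 1), the non-muscle myosin gene Myh10 by 0.37 and Cnn2 by 0.26. Myh9, the other main non-muscle myosin heavy chain, differed by -0.28 (adjusted p = 0.053), and Actb, the cytoplasmic beta-actin gene, by -0.01. Actin genes are alike in sequence, and whether the probes of Acta2, Actc1 and Acta1 read each other's transcripts was not tested. Of the 24 paralogues with a promoter window, 4 had a CArG box. Actc1 has CCAAATAAGG 47 to 38 bases before its start, Acta1 CCAAATATGG 73 to 64 bases before, and Cnn2 CCTTATAAGG 56 to 47 bases before. Myl7, which differed by 0.003 without passing, has CCTTATTTGG 61 to 52 bases before. Myl7 lay close to the background level of 7.29, with a wild-type mean of 7.32. No CArG box was found for Tagln2 and Myh10, which fell.

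**Figure D5:**
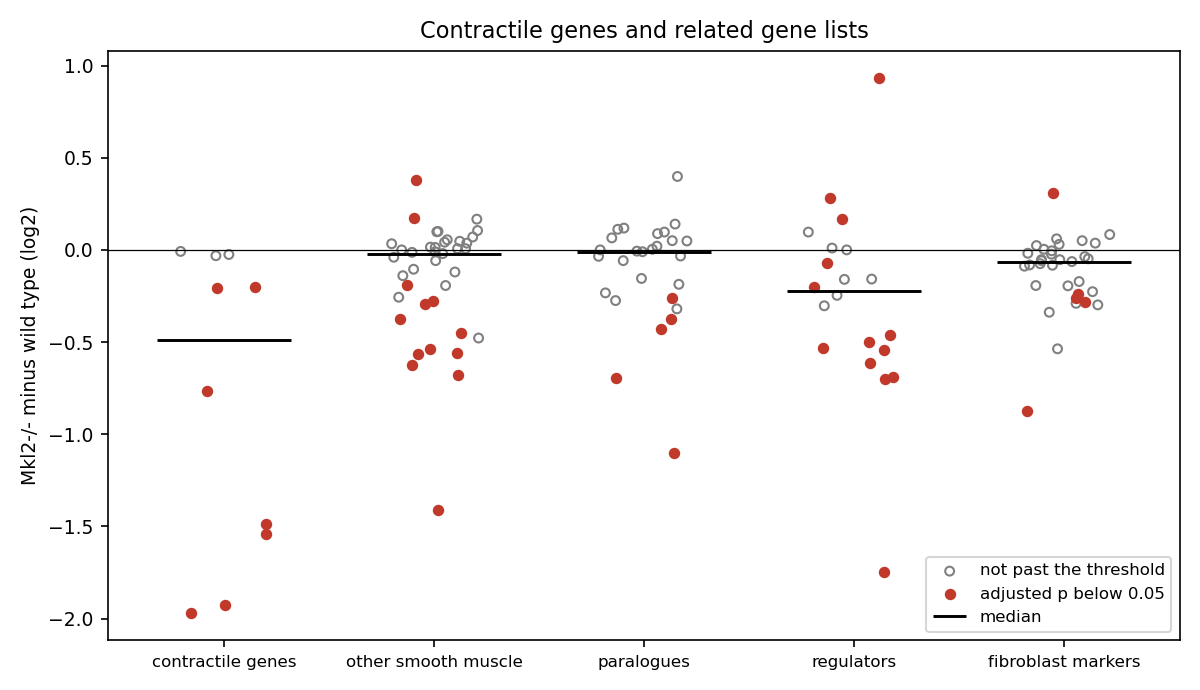
Differences, Mkl2-/- minus wild type (log2), of the genes of 5 lists; filled red points passed an adjusted p of 0.05, open points did not, and black lines are medians. The 10 contractile genes have the lowest median, -0.49, and the paralogues and other smooth muscle genes have medians of -0.01 and -0.02.

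Fibroblasts make many of these contractile proteins, so markers of the feeder cells were followed beside them. Of 33 measured fibroblast markers 4 fell and 1 rose, and the median was -0.06. Of them 12.1% fell, against 6.28% of all genes. Every Mkl2-/- array was lower for 11 of the 33 and higher for 2, against 16.7% and 16.9% of all genes. The summed intensity of the fibroblast markers was 14560 to 14770 on the Mkl2-/- arrays, against 17220 and 17250 on the wild-type arrays. Bright genes weigh most in such a sum, and Sparc and Fstl1 were the brightest of these markers. The summed intensity of the 10 contractile genes was 5008 to 5267 in Mkl2-/- cells, against 11150 and 12030 in wild-type cells. Fstl1 (-0.88), a secreted glycoprotein gene, Mmp2 (-0.26), Pdgfrb (-0.28) and Sparc (-0.24) fell and Twist1 (0.31) rose. Ccdc80 was below background on all arrays, as were Fap, Lum, Ogn, Postn and Col12a1. The fibrillar collagen genes, among the most abundant transcripts of fibroblasts, differed by -0.29 (Col1a1, adjusted p = 0.0901), -0.08 (Col1a2, adjusted p = 0.413) and 0.05 (Col3a1, adjusted p = 0.408). The part of feeder fibroblasts in the contractile gene values was not tested. The mean log2 value of the fibroblast markers was 7.939 to 7.991 on the Mkl2-/- arrays, against 8.075 and 8.093 on the wild-type arrays. It thus follows genotype, and a fit that holds both cannot tell them apart. With the mean of the fibroblast markers as a covariate the differences were -1.43 for Acta2, -2.15 for Tagln, -1.04 for Cnn1 and -1.26 for Myl9, and no gene of the array passed in that fit (limma adjusted p = 0.555 for Acta2 and 0.484 for Tagln), which leaves 2 residual degrees of freedom.

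The cells carried the markers of embryonic stem cells on every array. All 12 stem cell markers examined lay above background. Of these 1 fell and 5 rose, while 6.28% of all genes fell and 2.99% rose. Pou5f1 and Sox2 differed by 0.03 and 0.07 without passing. The one that fell was Nanog, by 1.14 (SE 0.0663, limma adjusted p = 0.00818). Of 16 markers of striated muscle, 7 were below background on all arrays, among them the myosin genes Myh1, Myh2, Myh4 and Myh6, and none passed. Of 10 pericyte and endothelial markers, Rgs5, Abcc9 and Emcn were below background on all arrays and none passed. Of 10 markers of primitive endoderm, 3 rose (Lama1 by 1.45, Gata4 by 0.93 and Pdgfra by 0.75) and none fell, while 2.99% of all genes rose. The summed intensity of the 10 markers was 4271 to 4728 in Mkl2-/- cells, against 3402 and 3385 in wild-type cells. The part of such cells in the contractile gene values was not tested.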

How the data were processed

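Per the submitters' processing notes, the deposited log2 values were made with RMA in Affymetrix Expression Console 1.1, a method that subtracts background, equalizes the arrays' distributions and combines probes into 1 value per feature; no further settings are stated. They run from 3.39 to 14.26 on 5 arrays of 35556 features, with array medians of 7.94 to 7.98. For arrays, the number of arrays limits the precision.

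The platform annotation named 1 gene for 21789 features, more than 1 for 1621 and left 12146 unnamed. The brightest feature per gene gave 19938 genes, fitted in R 4.3.3 by limma 3.58.1, its lmFit followed by eBayes (3 residual and 0.885 prior degrees of freedom) and adjusted by Benjamini-Hochberg over all genes, at a threshold of 0.05. Chromosomes, synonyms and promoters are RefSeq's (GRCm38.p6). Of 180 listed symbols 177 were measured. Named were all 10 members, the 6 genes of smallest p in each of 4 supporting lists, Mkl2, Mkl1, Myocd, Srf and 3 collagens; other names were chosen after their values were seen. The members and lists were chosen with earlier results of these data known. The fit was tested on simulated data. Same-numbered arrays showed correlations of -0.201 and 0.191 of their deviations from the group mean. The deviations of the 2 wild-type arrays mirror each other, so these values are not separate and cannot decide on pairing. The numbers were not taken to pair the arrays. Alternatives were normalization, filters on dim genes, moderation, array weights, choice of feature, the replicate block, a fibroblast covariate, a fold minimum of 1.5 and each array left out; a fit of genes with a spread within groups was added after the data were seen. Figures were drawn with matplotlib 3.10.9.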

Additional observations from a re-analysis of the deposited data

How the results depend on the processing

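The 7 calls among the contractile genes (7 lower) were kept under cyclic loess, quantile normalization, array weights, the mean of features, a trended robust eBayes and both filters on dim genes; with all 35556 features fitted 6 passed, Des being lost (adjusted p = 0.0626), and with a 1.5-fold minimum 5. With the replicate block (1 residual degree of freedom) and with the fibroblast covariate 0 members and 0 genes of any list passed, and 0 genes overall were lower or higher; 3827 and 1600 genes had an unadjusted p below 0.05. The direction of the 7 genes held in all of these fits. The median difference of the members was -0.51 with the block, -0.34 with the covariate, and -0.77 and -1.49 where the filters removed Actg2 alone or Actg2, Lmod1 and Myh11. The cause of the other shifts was not tested. Myh11 reversed with array weights (0.0015), with the covariate (0.19), without Mkl2-/- replicate 2 (0.035) and without wild-type replicate 1 (0.017), with a range of -0.033 to 0.035 over single arrays left out; Lmod1 reversed with the covariate (0.044) and without the same arrays (0.055 and 0.030), with a range of -0.12 to 0.055, and Actg2 with the covariate (0.013).

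With single arrays left out, the members passing ranged from 0 to 4 and their median from -0.55 to -0.43, the lower calls over all genes from 0 to 490 and the higher from 0 to 473, the other smooth muscle genes from 0 to 4, the paralogues from 0 to 3, the regulators from 0 to 4 and the fibroblast markers from 0 to 2. Over all genes, 1252 lower and 596 higher became 1977 and 1005 with cyclic loess, 1751 and 1483 with quantile normalization, 408 and 96 with the fold minimum, and 1727 and 916 among genes with a spread within groups; higher calls were 32.3% of all calls in the first case and 45.9% after quantile normalization. Paralogues past the threshold (5) were 9 with cyclic loess, quantile normalization, genes above the median gene and genes with a spread, 8 above background, and 2 with the fold minimum. Fibroblast markers (5) were 8 with cyclic loess and among genes with a spread, 3 with all features and 1 with the fold minimum. Regulators (13) were 7 with all features and 5 with the fold minimum, and other smooth muscle genes (13) were 3 with it. The median of all genes stayed within 0.1 of its value in every fit. Dim features limit what can be said of Actg2, Lmod1 and Myh11.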

Other observations

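The genes whose log2 values, centred on their own mean, lay nearest to those of Acta2 over the 5 arrays were Alox15, a lipoxygenase gene (root mean square distance 0.0611), Efemp1, which encodes fibulin-3 (0.0978), and the glutamate receptor gene Gria3 (0.121). For Tagln they were Rps6ka3 (0.0861) and Rdh10 (0.096), on chromosomes X and 1, and Alox15 (0.116). Their differences ran from -1.98 (Alox15) to -1.79 (Rdh10).

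Genes with a CArG box in the promoter window did not all fall. Among the other smooth muscle genes, paralogues and regulators, 12 had such a box. Of these 6 fell, namely Actc1, Acta1, Cnn2, Vcl, Fhl1 (-0.56) and Fhl2 (-0.54), and 6 did not pass, namely Srf, Myl6, Filip1l, Ldb3, Fbxl22 and Myl7. Ldb3, Fbxl22 and Myl7 lay close to the background level of 7.29, with wild-type means of 7.75, 7.65 and 7.32, so a fall may not show. Srf (-0.16) and Myl6 (-0.12) had every Mkl2-/- array below both wild-type arrays, as did 16.7% of all genes. Filip1l, with a wild-type mean of 9.24, differed by 0.007. Over all measured genes with a RefSeq window, 9.06% of the 254 with a CArG box and 6.20% of the 15360 without one were called lower, and 2.76% and 2.99% were called higher. The median differences were 0.01 and 0.02. These shares were not tested against each other, and a box farther from the start than the window is not counted.

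Of the members that fell, the promoter windows of Cnn1, Cald1, Smtn and Des held no CArG box or CArG-like box. Tagln, Myh11 and Actg2 have no window here.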
